A study of Mus musculus with 2 samples.

Results

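Within the control culture, cells in which Zbtb16 RNA was captured several times were compared with cells in which it was not captured at all. Control cells were barcodes with 25000 to 60000 UMIs, at least 500 genes and at most 10% of UMIs from mitochondrially encoded genes. UMIs are molecular identifiers, so each one counted stands for a single RNA molecule that was captured. Of the 4031 control cells in this window, 318 had 3 or more Zbtb16 UMIs (7.89%) and 1929 had 0 (47.9%). Another 1227 had 1 UMI and 557 had 2, and these took no part in the comparison. Control cells from 15000 UMIs upward numbered 6354, and those of both libraries of the study 15803. Zbtb16 counts chose both sets of cells, so the Zbtb16 values below describe that choice and are no result.

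The study differentiated the mouse embryonic stem cell line D3 toward cardiomyocytes and took cells at day 6, from a wild-type control and from a Zbtb16 knockout. Each group had 1 droplet library, and whether the knockout is 1 clone was not stated in the labels. Both sets compared here are wild type and come from the same library and day, and the knockout cells serve only as a level beside them. Cells of 1 library are not replicates of a condition, so no difference below was tested, and every interval is an exact 95% interval that covers counting error only.

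Zbtb16, also called PLZF, is a transcription factor with DNA-binding zinc fingers and a BTB domain through which it pairs with itself and recruits corepressors such as Ncor1 and histone deacetylases. It is known for maintaining spermatogonial stem cells, for shaping innate-like lymphocytes and for limb and axial patterning. Cultures of this kind pass from mesoderm through cardiac progenitors to beating cardiomyocytes, and also hold mesenchymal, endothelial and a few endodermal cells.

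In all, 308465930 UMIs were counted in the control library and 357324373 in that of the knockout, and 49.9% of the control UMIs lay in cells of the window. From 15000 UMIs upward 16 cell barcodes occurred in both libraries, and 8 did within the window. Of the markers of the labelled cell state, 19 of 22 cardiomyocyte genes and 15 of 20 cardiac progenitor genes reached 10 CPM (UMIs of a gene per 1000000 UMIs) over the control window. Of 12 pluripotency genes 1 did, so the name embryonic stem cell describes the line and not the bulk of these cells. A few remaining pluripotent cells could be missed by such a sum.

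The targeted gene was read first. Zbtb16 stood at 22.6 CPM over all control cells of the window (21.9 to 23.4) and at 0.897 CPM over the 5736 knockout cells of the same window (0.773 to 1.04), of which 4 had 3 or more UMIs. Barcodes with 10 to 100 UMIs, which hold free RNA rather than cells, gave 24.7 CPM in the control library (20.7 to 29.3, 132 UMIs). The level in control cells was therefore no higher than in the free RNA around them. How many of the Zbtb16 UMIs in a given cell came from free RNA was not tested.

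Zbtb16 counts per cell were low and close together. The mean was 0.864 UMIs, the highest cell had 12, and the variance was 1.40 times the mean, where counts at 1 constant rate would give 1. After each cell was thinned at random to 25000 UMIs the mean was 0.575 and the variance 1.24 times the mean. Thinning lowers this ratio by itself, so the 2 ratios show no effect of depth. The 318 high cells included 196 with exactly 3 UMIs, 84 with 4 and 38 with 5 or more. Over all 318 the level was 84.9 CPM (80.0 to 89.95, 1143 UMIs). A count of 0 does not show that a cell lacked the RNA: at the median depth of the cells with 0, the 3 counts that a zero allows correspond to 86.5 CPM, more than the mean of the whole window. Both sets therefore overlap in what their cells could have held.

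Depth differed between the sets. Cells with 3 or more Zbtb16 UMIs had a median of 41847 UMIs (5th to 95th percentile 27601 to 57470) and 6794 genes. Cells with 0 had a median of 34701 UMIs (25961 to 54524) and 6150 genes. Mitochondrially encoded genes gave medians of 4.28% and 4.19% of UMIs, nearly the same. Just outside the threshold, cells with 2 Zbtb16 UMIs had a median of 38972 UMIs. The share of cells with 3 or more was larger at greater depth, from 3.61% (2.51 to 5.00) between 25000 and 30000 UMIs to 15.1% (10.8 to 20.3) between 55000 and 60000. Over the same 7 depth bins the Zbtb16 level itself stayed between 20.8 and 23.6 CPM. The high set was thus drawn more often from deep cells although Zbtb16 took about the same share of UMIs at every depth.

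**Figure D1:**
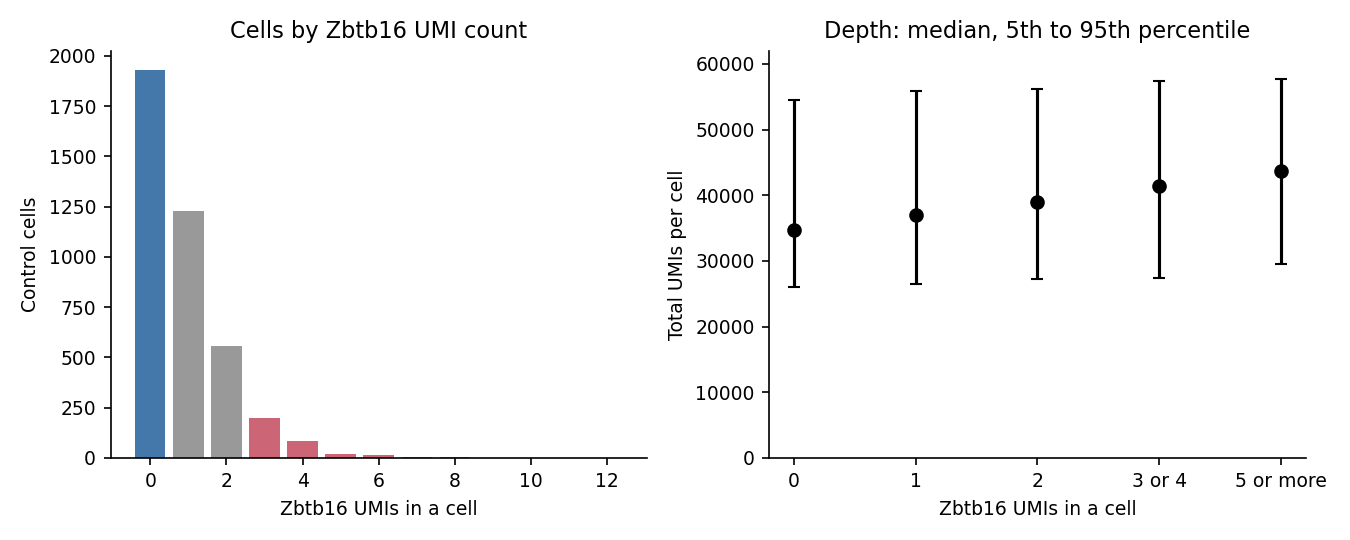
Left, number of control cells in the window by their Zbtb16 UMI count, with the cells with 0 in blue and those with 3 or more in red. Right, total UMIs per cell in each class of Zbtb16 count, as median (point) and 5th to 95th percentile (bars). The median climbs from 34701 UMIs in cells with 0 to 41847 over all cells with 3 or more.

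Few genes differed between the sets by much. Among 8289 genes with at least 10 CPM over the window, and with Zbtb16 left out, 27 were at least 1.5-fold higher in the cells with 3 or more Zbtb16 UMIs (0.326% of those measured) and 7 at least 1.5-fold lower (0.0844%). Ratios are of CPM plus a prior of 1, on a log2 scale. The median log2 ratio was 0.03, with 5th and 95th percentiles of -0.18 and 0.35. Only 5 genes passed 2-fold, all of them higher. With edgeR's TMM scaling in place of CPM the split was 17 higher and 11 lower, and the median of all genes was -0.05. Weighting the cells with 0 to the depth of the high cells gave 30 higher and 14 lower, and 20 of the 27 and 6 of the 7 were among them. By the gene lists, 3 endoderm genes, 3 histone genes and 1 gene of G2 and M phase were among the 27. The retinoic acid, glycolysis and guidance lists had 1 each. So did the list of epithelial to mesenchymal transition and cadherins, with Epcam, which is on the endoderm list too. Among the 7 were 1 cardiomyocyte, 1 endothelial and 1 pluripotency gene.

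**Figure D2:**
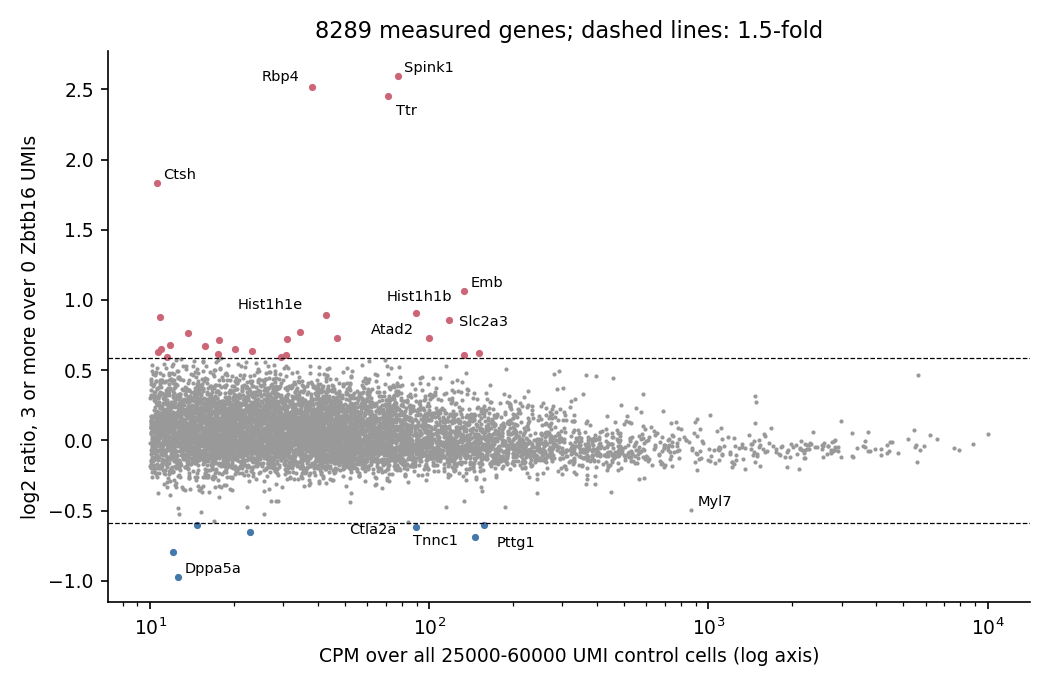
Each point is 1 gene, with its CPM over all control cells of the window on a log axis and its log2 ratio between cells with 3 or more and cells with 0 Zbtb16 UMIs. Red and blue points lie past 1.5-fold (dashed lines), and the endoderm genes Spink1, Rbp4, Ttr and Ctsh stand apart from the rest.

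The largest ratios belonged to genes of visceral endoderm and liver-type secretion. Spink1, a secreted trypsin inhibitor, stood at 247 CPM in cells with 3 or more Zbtb16 UMIs and 40.1 CPM in cells with 0, a log2 ratio of 2.60 (2.55 to 2.70). Rbp4, the plasma carrier of retinol, stood at 132 against 22.4 CPM (2.51). Ttr, the carrier of thyroid hormone that partners Rbp4 in plasma, stood at 230 against 41.1 CPM (2.45). All 3 are secreted and also lead a cluster of control cells described next. Ctsh, a lysosomal protease, stood at 25.5 against 6.44 CPM, and Gldc, a glycine-cleaving enzyme, at 17.9 against 9.29 CPM. Emb, the membrane glycoprotein embigin, stood at 234 against 111 CPM (1.07), and Epcam, an epithelial adhesion molecule, at 24.95 against 14.2 CPM (0.77). Ctsh and Gldc fell outside the rule for named genes and were chosen after their values were seen.

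Nearly all of this lay in a small group of cells. Clustering without Zbtb16 gave 14 clusters of control cells, and cluster 13, with 79 cells, was called endoderm-like from 6 markers among its 10 leading genes, which include Ttr, Spink1, Rbp4, Apoa1, Apob and Afp. It held 16 of the 318 high cells (5.03%, 2.90 to 8.04) and 31 of the 1929 cells with 0 (1.61%, 1.09 to 2.27). Those 16 cells supplied 99.3% of the Ttr UMIs of the high set, 98.5% of its Spink1 and 98.7% of its Rbp4. In the set with 0, the 31 endoderm-like cells supplied 94.4%, 86.6% and 86.9%. Outside the cluster Ttr stood at 1.81 CPM in the high cells and 2.35 CPM in the cells with 0, and Rbp4 at 1.81 against 2.98 CPM. Spink1 stood at 4.01 against 5.45 CPM there. These levels are under the 10 CPM at which genes count as measured, so no direction is read from them. All 3 lead the cluster, and Ttr and Spink1 helped to name it, so their concentration in it is no separate result.

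Without the endoderm-like cluster 23 genes were at least 1.5-fold higher and 5 lower, and 15 of the 27 and 4 of the 7 were still past it. The genes that dropped below 1.5-fold on the higher side were Spink1 (-0.36), Rbp4 (-0.50), Ttr (-0.25), Ctsh (-0.04), Emb (0.09), Gldc (-0.04), Epcam (-0.38), Slc2a3 (0.46), Cited1 (-0.45), Sema6a (0.27), Car4 (0.13) and Mt1 (0.08), each given as its log2 ratio without the cluster. Car4 is a membrane-bound carbonic anhydrase, Mt1 a metallothionein, Sema6a a guidance ligand and Cited1 a transcriptional coactivator; Cited1 was chosen after its values were seen. Of 22 endoderm genes on the list, 7 were measured and 3 were at least 1.5-fold higher. The list median was 0.52 over all cells and -0.25 without the cluster. Outside the cluster Ttr, Spink1, Epcam, Sox17 and Hhex lay under the level at which genes count as measured. No direction is therefore read from the -0.25. Dab2 and Rhox5, the members above that level there, had 0.15 and 0.19. The cardiomyocyte median was -0.22 with the cluster and -0.19 without it.

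Inside the endoderm-like cluster levels differed too, on few cells. Ttr stood at 4059 CPM in its 16 high cells and 2248 CPM in its 31 cells with 0. Spink1 stood at 4335 against 2012 CPM, Rbp4 at 2326 against 1125 CPM and Emb at 2555 against 1311 CPM. Epcam went the other way, at 350 against 394 CPM, and Dppa5a, a marker of pluripotent cells, did so more widely, at 143 against 980.0 CPM. So did Rhox5, a homeobox gene of the endoderm list, at 21.1 against 114 CPM. The high cells of the cluster were deeper, with a median of 47480.5 UMIs against 36041. Whether depth has a part in these differences was not tested.

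Zbtb16 itself was highest in that cluster. It stood at 30.9 CPM there (25.3 to 37.5, 103 UMIs), and 20.3% of its cells had 3 or more UMIs (12.04 to 30.8). The next was cluster 5, cardiomyocyte-like, at 28.2 CPM (24.8 to 31.9), which overlaps it. The lowest was cluster 4, mesenchymal and fibroblast-like, at 17.3 CPM (14.7 to 20.1) and 3.45% high cells (1.59 to 6.44). Clusters within a class differed as well. Among the 5 cardiomyocyte-like clusters the level ran from 18.5 CPM in cluster 2 to 28.2 CPM in cluster 5, and among the 4 mesenchymal and fibroblast-like ones from 17.3 to 24.99 CPM. By class, the cardiomyocyte-like clusters held 38.4% of the window and gave 21.6 CPM (20.4 to 22.8), and the mesenchymal and fibroblast-like ones gave 21.7 CPM (20.4 to 23.1). The 3 unnamed clusters, led by genes such as Igfbpl1, Irx5 and Ebf3 or by histones, gave 25.3 CPM (23.8 to 27.0). The endothelial-like cluster gave 18.6 CPM (15.7 to 22.04). Zbtb16 RNA was thus found in every cluster, over a range of less than 2-fold.

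**Figure D3:**
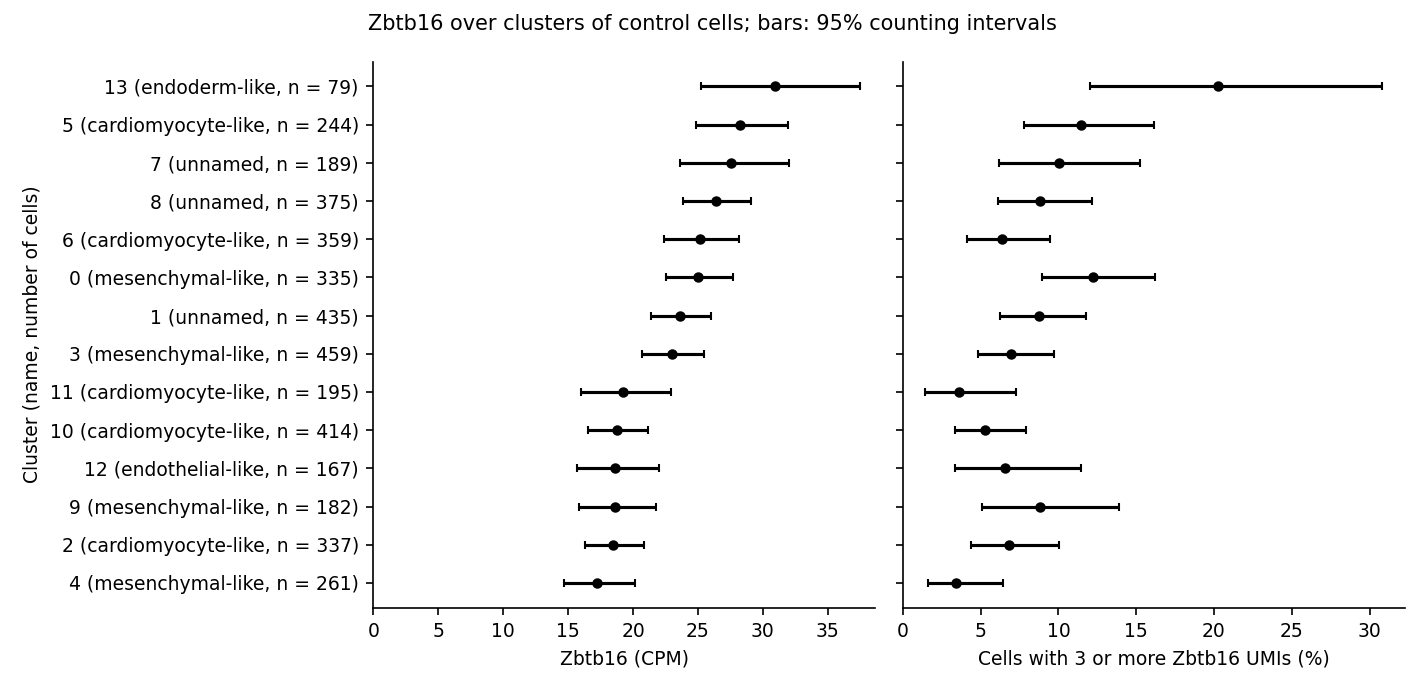
Zbtb16 level in CPM (left) and the percent of cells with 3 or more Zbtb16 UMIs (right) in each of the 14 clusters of control cells, with 95% counting intervals. Endoderm-like cluster 13 has the highest value on both axes, 30.9 CPM and 20.3%, and mesenchymal and fibroblast-like cluster 4 the lowest, 17.3 CPM and 3.45%.

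Genes of DNA replication were slightly higher, with and without the endoderm-like cells (medians 0.21 and 0.22). All 26 S phase genes on the list were measured and all 26 had a log2 ratio above 0, while none passed 1.5-fold. With TMM scaling 21 of the 26 lay above 0 and the median was 0.13. With CPM the median over all 8289 genes was 0.03, so most measured genes lay above 0 as well. Counts of list members above or below 0, here and below, have no exact share of all genes beside them. Clspn, a checkpoint adaptor at the replication fork, stood at 77.3 CPM in the high cells and 55.8 CPM in the cells with 0 (0.46). Ccne2, the cyclin of S phase entry, stood at 34.0 against 24.8 CPM (0.44), and Pcna, the sliding clamp, at 226 against 197 CPM (0.20). Rrm2, a subunit of ribonucleotide reductase, stood at 326 against 283 CPM (0.21), and Mcm5 of the replicative helicase at 98.8 against 94.8 CPM (0.06). Each of these differences is small.

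Genes outside the S phase list passed 1.5-fold, and are given here one by one, not as a group. Atad2, a bromodomain ATPase of replicating chromatin, stood at 141 CPM in the high cells and 84.8 CPM in the cells with 0, a log2 ratio of 0.73 (0.66 to 0.81). Atad5, which unloads the sliding clamp, stood at 43.5 against 26.0 CPM (0.72). Brca1, a factor of DNA repair, stood at 31.0 against 19.6 CPM (0.64), and Haus6, a subunit of the augmin complex of the spindle, at 28.3 against 17.7 CPM (0.65). E2f7, a repressor among the E2F factors, stood at 24.7 against 14.7 CPM, and Stil, needed for centriole duplication, at 15.4 against 9.43 CPM. E2f7 and Stil were chosen after their values were seen. After thinning to 25000 UMIs, Atad2 had at least 1 UMI in 84.9% of the high cells (80.5 to 88.7) and 69.2% of the cells with 0 (67.1 to 71.3). Without thinning these shares were 90.3% and 75.6%. Free RNA held Atad2 at 77.5 CPM, and no cell class that lacks this gene was at hand as a background.

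Histone genes had a list of their own. Hist1h1b, a linker histone made in S phase, stood at 132 CPM in the high cells and 70.0 CPM in the cells with 0, a log2 ratio of 0.91 (0.84 to 0.99). Hist1h1e stood at 62.8 against 33.4 CPM (0.89) and Hist1h2ae at 49.8 against 28.7 CPM (0.77). These 3 were past 1.5-fold, of 8 histone genes measured out of 22, with a list median of 0.48, and 5 of the 8 lay above 0. Hist1h1c and Hist1h2bc lay on the other side, at 23.3 against 31.7 CPM (-0.43) and 12.3 against 17.8 CPM (-0.51). H1f0, a linker histone of the list that is not tied to replication, stood at 295 against 297 CPM. Reads of near-identical histone copies could have been split between them by the counting, so single histone values are uncertain. After thinning, Hist1h1b had a UMI in 58.2% of the high cells (52.5 to 63.7) and 36.8% of the cells with 0 (34.7 to 39.0), against 61.0% and 41.0% without thinning. In thinned counts the median high cell had 1 Hist1h1b UMI and the median cell of the other set 0, with upper quartiles of 5 and 2.

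Genes of G2 and M phase were divided. Of 27 such genes, all measured, 1 was at least 1.5-fold higher, 15 lay above 0 and 12 below, with a median of 0.04, or -0.04 with TMM scaling. Mki67, the proliferation antigen, stood at 180 CPM in the high cells and 118 CPM in the cells with 0 (0.61), Kif11, a spindle motor, at 92.0 against 61.4 CPM (0.58) and Top2a, a topoisomerase, at 557 against 408 CPM (0.45). At the same depth these 3 had 0.37, 0.28 and 0.14, so Mki67, the member past 1.5-fold, was no longer past it, and above 60000 UMIs Mki67 had 0.044. Cdc20, the activator of the anaphase-promoting complex, stood lower, at 91.8 against 128 CPM (-0.47), as did the mitotic cyclin Ccnb2 at 109 against 147 CPM (-0.43). Outside the list, Pttg1, securin, which holds sister chromatids together until anaphase, was past 1.5-fold at 117 against 177 CPM (-0.60). At the same depth the list median was -0.25, Cdc20 had -0.63 and Pttg1 -0.65.

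The S phase and histone lists were read within cell classes. In the cardiomyocyte-like clusters alone (103 high cells, 802 with 0) the S phase median was 0.31 and the histone median 0.62. In the mesenchymal and fibroblast-like clusters (98 and 596 cells) they were 0.25 and 0.63, and in the unnamed clusters (90 and 420 cells) 0.00 and 0.23. Hist1h1b had log2 ratios of 1.15, 0.87 and 0.62 in these 3 classes, and Atad2 of 0.85, 0.85 and 0.37. Pttg1 was lower in all 3, at -0.62, -0.52 and -0.52. Several clusters are themselves split by cell cycle, such as unnamed cluster 1, whose leading genes include Hist1h1b, Hist1h1e, E2f8 and Ccne2. When the cells with 0 were weighted to the cluster makeup of the high cells, the S phase median was 0.06 and the histone median 0.15. With the makeup matched the difference over these lists was thus smaller, and the part that the cell cycle genes leading some clusters have in this was not tested.

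Depth was measured beside this group. Weighted to the same depth, the S phase median was 0.19 and the histone median 0.33, with Hist1h1b at 0.70 and Atad2 at 0.68. Control cells with more than 60000 UMIs, which the rule did not use, included 364 with 3 or more Zbtb16 UMIs and 302 with 0. There the S phase median was 0.09, the histone median 0.23, Hist1h1b stood at 0.54 and Atad2 at 0.46, all in the same direction and under 1.5-fold. When both sets were chosen on counts thinned to 25000 UMIs (137 and 2388 cells), the medians were 0.34 and 0.53. Control cells with 15000 to 25000 UMIs held only 22 high cells against 703 with 0, and there Hist1h1b and Atad2 had ratios of -1.87 and -0.26.

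On the lower side stood genes of heart muscle. Of the 19 measured cardiomyocyte genes 16 had a ratio below 0 and Tnnc1 alone passed 1.5-fold, and the median was -0.22. Tnnc1, the slow and cardiac troponin C, stood at 99.7 CPM in the high cells and 161 CPM in the cells with 0 (-0.68, -0.77 to -0.61). For Myl7, the atrial myosin light chain, the levels were 670 and 947 CPM (-0.50). The cardiac actin Actc1 stood at 146 against 202 CPM (-0.47) and Tnnt2, cardiac troponin T, at 311 against 387 CPM (-0.31). The 3 members above 0 were Ttn, the giant spring of the sarcomere, at 339 against 309 CPM (0.14), Ryr2, the calcium release channel, at 57.9 against 47.1 CPM (0.29), and Tnni3, cardiac troponin I, at 12.1 against 10.2 CPM (0.23). With the trend on transcript length removed, as described below, Ttn had -0.32 and Ryr2 0.0025. Hspb7, a chaperone of the sarcomere, stood at 10.5 against 16.4 CPM. Fbxl22, an F-box protein of the Z disc, stood at 7.43 against 13.6 CPM. Both passed 1.5-fold as well and were chosen after their values were seen. With depth and cluster makeup matched they had log2 ratios of -0.19 and -0.32. In cells with more than 60000 UMIs they had 0.23 and 0.46, the other direction. Knockout cells of the window stood at 9.17 CPM for Myl7 and 20.7 CPM for Tnnt2, far below both control sets.

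This group moved with cell makeup. The cardiomyocyte-like clusters held 103 of the 318 high cells (32.4%, 27.3 to 37.8) and 802 of the cells with 0 (41.6%, 39.4 to 43.8). Within those clusters the cardiomyocyte median was -0.08, with Tnnc1 at -0.54 and Myl7 at -0.30. Without them it was 0.21, at the same depth -0.10, and with the cells with 0 weighted to the same cluster makeup 0.21. With depth and makeup matched together it was 0.09, and 0.05 with the length trend removed as well. In cells with more than 60000 UMIs it was 0.00. Ttn, at 0.52, and Ryr2, at 0.50, were both above 0 with the same makeup, and Myl7, at -0.10, was below. Over cells with 0, 1, 2, 3 or 4, and 5 or more Zbtb16 UMIs the summed cardiomyocyte level was 4380, 4115, 4069, 3762 and 3189 CPM.

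Endothelial genes were low in the same set. Of 10 measured out of 19, 9 lay below 0, Sox18 alone passed 1.5-fold, and the median was -0.26. Sox18, a transcription factor of the vessel wall, stood at 15.1 CPM in the high cells and 24.2 CPM in the cells with 0 (-0.65), and Cdh5, the cadherin of endothelial junctions, at 8.76 against 12.6 CPM (-0.48). Ctla2a, a cysteine protease inhibitor that led the endothelial-like cluster, stood at 51.6 against 79.8 CPM (-0.62). Ctla2b is a close copy, so that value may be shared between them. The endothelial-like cluster held 3.46% of the high cells (1.74 to 6.10) and 4.15% of the cells with 0 (3.30 to 5.14), intervals that overlap. The list median was -0.65 at the same depth, where 6 members passed 1.5-fold: Sox18 (-1.05), Plvap (-0.98), Cdh5 (-0.85), Pecam1 (-0.72), Ramp2 (-0.68) and Fli1 (-0.63). It was -0.06 with the same cluster makeup and -0.04 with depth and makeup matched together. In the 38 cells with 5 or more Zbtb16 UMIs the summed endothelial level was 168 CPM, against 315 CPM in cells with 0. In cells with 3 or 4 it was 285 CPM. Few cells carry such genes: of the Cdh5 UMIs in the set with 0, 98.1% lay in 5% of cells. A sum over 38 cells may therefore turn on single cells.

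**Figure D4:**
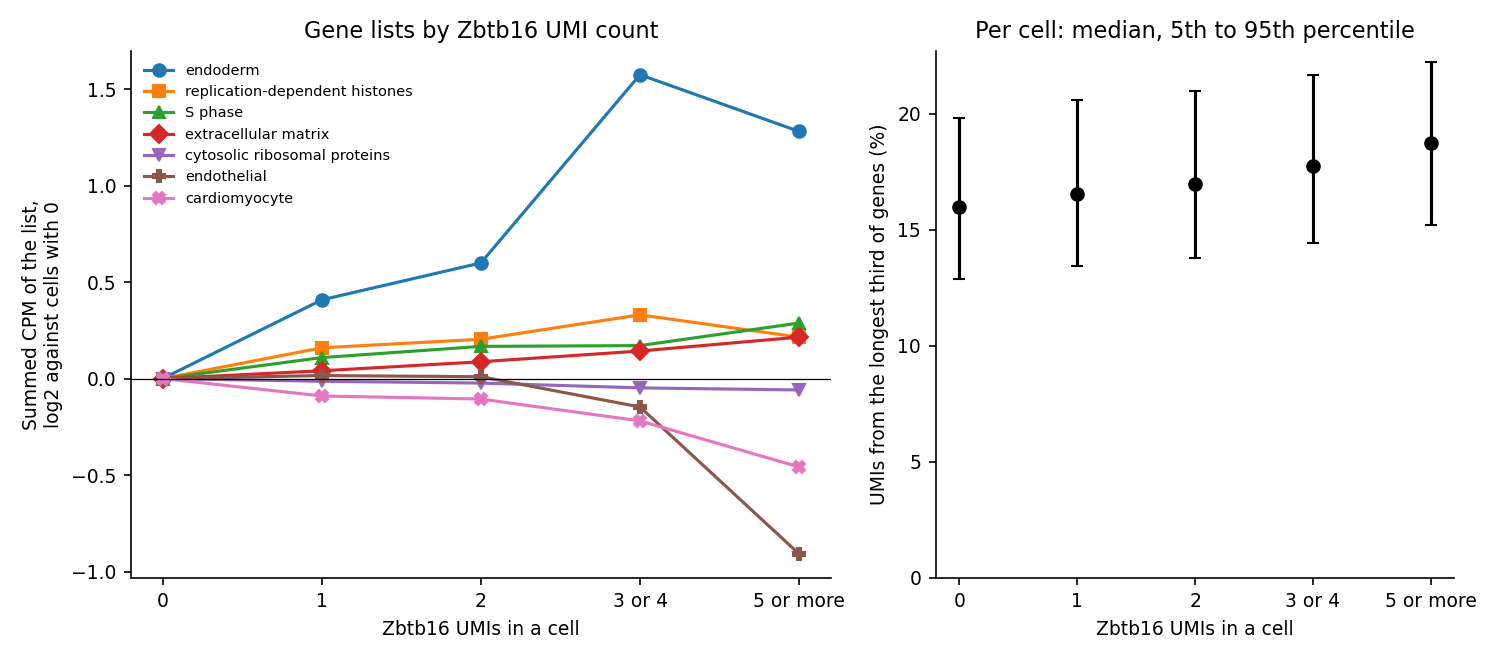
Left, summed CPM of 7 gene lists in cells with 0, 1, 2, 3 or 4, and 5 or more Zbtb16 UMIs, as log2 against the cells with 0. Right, the percent of a cell's UMIs from the 2761 genes with the longest transcripts, as median (point) and 5th to 95th percentile (bars). Endoderm and S phase sums are higher and cardiomyocyte sums lower than in cells with 0 at every higher Zbtb16 count, and the share from long transcripts climbs from 15.98% to 18.7%.

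Transcript length went with the ratio across the whole table. Over 8286 genes Spearman's rho between the log2 ratio and transcript length was 0.584, and with GC content it was -0.228. These are descriptions across genes of the same 2 sets of cells, which are not independent of each other, and carry no test. The median ratio was -0.05 for transcripts of up to 2281 bases, 0.02 for those up to 4101 bases and 0.17 for the 2761 genes of 4102 bases or more. Zbtb16 itself has a transcript of 5114 bases. The longest genes gave a median of 16.0% of a cell's UMIs in cells with 0 (12.9 to 19.8, 5th to 95th percentile) and 17.8% in cells with 3 or more (14.5 to 21.8). Weighting for depth gave a rho of 0.566 and weighting for depth and clusters 0.603, so neither removed it. The cells chosen for several UMIs of this long transcript thus had a larger share of long transcripts in general, and the cause was not tested.

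The groups were read again with a trend on length taken out. That left 17 genes at least 1.5-fold higher and 6 lower, 15 and 5 of them from the 27 and 7. Atad2 had 0.56, Atad5 0.52, Brca1 0.44 and Mki67 0.37 after it, all under 1.5-fold. Hist1h1b at 0.99 and Hist1h1e at 0.93, with short transcripts, were slightly larger than before, and Tnnc1 was -0.60. The S phase median was 0.17 and the histone median 0.56 with the trend removed. With depth and cluster makeup matched as well they were 0.038 and 0.28, and 10 genes were at least 1.5-fold higher and 3 lower.

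Matrix and mesenchymal genes stood slightly higher, less so with the length trend removed. Of 13 measured mesenchymal and fibroblast genes 11 lay above 0 and none passed 1.5-fold, with a median of 0.29, or 0.10 with the length trend removed. Col5a2, a fibrillar collagen, stood at 37.7 CPM in the high cells and 26.9 CPM in the cells with 0 (0.47), and Postn, a matricellular protein, at 28.1 against 20.6 CPM (0.43). Fibronectin, Fn1, stood at 423 against 336 CPM (0.33). Of 22 extracellular matrix genes 21 lay above 0 and none passed 1.5-fold, with a median of 0.15, or 0.04 with the trend removed. Col4a1 and Col4a2, the basement membrane collagens made as a pair, both had 0.52 and kept 0.33 with the trend removed. Of 13 FGF signalling genes all 13 lay above 0 (11 with TMM scaling) with a median of 0.23, and Fgfr2, a receptor, stood at 22.7 against 15.8 CPM (0.50, or 0.40 with the trend removed). Knockout cells stood at 162 CPM for Postn and 946 CPM for Fn1, well above both control sets.

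Short, abundant housekeeping transcripts stood slightly lower in the high cells. Of 29 genes of cytosolic ribosomal proteins 27 lay below 0, with a median of -0.05, and of 23 nuclear genes of oxidative phosphorylation 21 did, with a median of -0.14. With the length trend removed the medians were 0.03 and -0.07, so the ribosomal one changed sign. Gapdh, a glycolytic enzyme, stood at 5158 against 5738 CPM (-0.15). Slc2a3, a neuronal-type glucose transporter, was the 1 glycolysis gene past 1.5-fold, at 185 against 101 CPM (0.86), and 38.6% of its UMIs in the high set came from the 16 endoderm-like cells. Pgam2, the muscle form of phosphoglycerate mutase, stood at 61.6 against 92.9 CPM (-0.58), just inside 1.5-fold, while Pgam1, the widely expressed form, stood at 789 against 784 CPM.

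The gene named in the study's title was read in the same cells. Igf2bp3, which binds and stabilises messenger RNA, stood at 195 CPM in the high cells and 182 CPM in the cells with 0, a log2 ratio of 0.10 (0.04 to 0.16). After thinning the median cell had 5 UMIs in the high set and 4 in the other, with quartiles of 3 and 6 in both. For Igf2bp1 the levels were 235 and 201 CPM (0.22), and for Igf2bp2 154 and 139 CPM (0.14). With the length trend removed the 3 ratios were 0.00 for Igf2bp3 and Igf2bp1 and 0.07 for Igf2bp2. None of the 15 m6A genes, which write, erase or read that RNA mark, passed 1.5-fold, and their median was 0.13, or 0.03 with the trend removed. RNA levels carry no measure of message stability.

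Imprinted genes are expressed from 1 parental copy. Igf2, a growth factor whose messenger RNA Igf2bp proteins bind, stood at 697 CPM in the high cells and 553 CPM in the cells with 0 (0.33, or 0.21 with the length trend removed). Rian, a long noncoding RNA, stood at 376 against 266 CPM (0.50, or 0.28) and Kcnq1ot1, another, at 356 against 257 CPM (0.47, or 0.03). Mest, a gene of mesoderm, stood at 1495 against 1546 CPM (-0.05). Kcnq1ot1 is antisense to Kcnq1, and since the use of strand in counting was not stated, reads of such pairs may be shared. Of 22 measured imprinted genes none passed 1.5-fold and the median was 0.11. Knockout cells stood at 2381 CPM for Igf2 and 98.4 CPM for Mest, and both control sets lay close together beside those levels. This contrast and the one between libraries share the control cells, and their values stand side by side only.

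Corepressors and partners of Zbtb16 were read next. Of 15 measured out of 17 none passed in either direction, and the median was 0.12, or -0.02 with the length trend removed. Ncor1 stood at 178 against 164 CPM (0.12) and Hdac2 at 261 against 275 CPM (-0.07). Cardiac progenitor genes gave a median of -0.10 over 15 genes with none past 1.5-fold. Gata4, a cardiac zinc finger factor, stood at 130 against 145 CPM (-0.16), Mef2c, a MADS-box factor, at 278 against 320 CPM (-0.21) and Gata6 at 405 against 403 CPM (0.01). Knockout cells stood at 39.0 CPM for Gata4 and 33.7 CPM for Mef2c. The knockout levels of both lay below those of either control set.

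Of the 34 genes past 1.5-fold, 9 higher and 1 lower were so with depth and cluster makeup matched together, a weighting that left out 1 high cell with no counterpart. The 9 were Spink1 (1.28), Ctsh (0.92), Rbp4 (0.90), Ttr (0.79), Gm26917 (0.77), Sema6a (0.71), Nin (0.68), Ly75 (0.62) and Emb (0.59), and the lower one was Dppa5a (-3.19). Without the endoderm-like cluster Spink1 had -0.36, Ctsh -0.04, Rbp4 -0.50, Ttr -0.25, Sema6a 0.27, Emb 0.09 and Dppa5a -0.51, all within 1.5-fold. Dppa5a is carried by few cells, with 100% of its UMIs in the set with 0 found in the 5% of cells that had the most. It is a leading gene of the endoderm-like cluster. That cluster supplied 86.4% of the Dppa5a UMIs in the high set and 88.0% in the set with 0. Gm26917, a predicted gene, stood at 67.6 against 40.3 CPM, Nin, ninein of the centrosome, at 16.3 against 10.5 CPM and Ly75, an endocytic receptor, at 40.7 against 26.7 CPM. These 3 were chosen after their values were seen, and without the endoderm-like cluster they kept 0.75, 0.65 and 0.61. In cells with more than 60000 UMIs, outside the window, 25 of the 27 and 5 of the 7 had the same sign and 10 and 1 passed 1.5-fold. Those with the other sign were Stil and Mt1 of the 27, and Hspb7 and Fbxl22 of the 7.

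**Figure D5:**
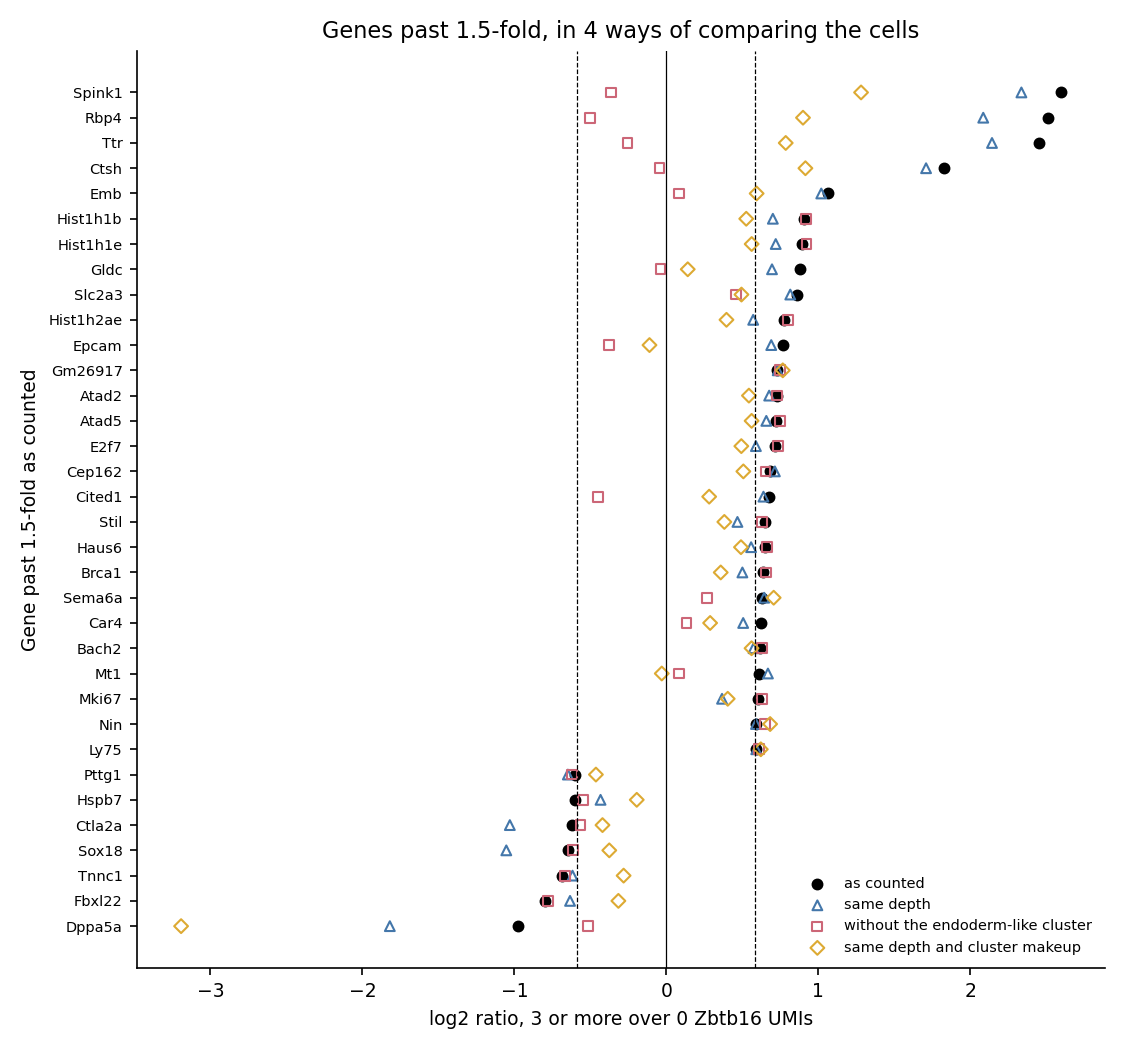
The 34 genes past 1.5-fold (dashed lines) with their log2 ratio as counted, at the same depth, without the endoderm-like cluster, and at the same depth and cluster makeup. Endoderm genes such as Ttr and Rbp4 turn to or below 0 without 79 cells, outside which they lie under 10 CPM. Hist1h1b, Hist1h1e and Atad2 keep their value without those cells and fall just under 1.5-fold with depth and makeup matched.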

How the data were processed

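The deposited files give unnormalised UMI counts for 32285 genes and all barcodes, written by Cell Ranger 4 per the file headers. The submitters' processing notes name Cell Ranger, R 4.1.1 and the build GRCm39 (mm39). UMIs were summed over each set of cells and scaled to CPM, with 1 added to each CPM before a ratio. Sums carry Poisson and shares Clopper-Pearson intervals at 95%. Genes count as measured at 10 CPM over the window. Named genes were the 15 largest ratios each way at 20 CPM or more, 3 members of each of 45 lists by level and 3 by ratio, and Zbtb16, Igf2bp genes, Mest, Igf2 and leading cardiomyocyte genes. The members, lists and rules were chosen with earlier results of these data known. Cells were clustered with scanpy 1.11.5 (2000 variable genes, 30 components, 15 neighbours, Leiden resolution 1), and clusters were named from at least 3 markers among their top 10 genes. Scrublet marked 3 cells (0.0744%), so it had not worked and no doublets were removed. Leaving out the 6% of window cells with the highest doublet scores kept 286 of the 318 high cells and 1828 of the 1929 with 0. The high set thus lost the larger share, and whether doublets have a part in the differences was not tested. Transcript length and GC came from GENCODE M21 on GRCm38, another build, so no coordinates are given, and their lowess trends were fitted with statsmodels 0.14.6. edgeR 4.0.16 gave TMM factors only. The scripts were tested on simulated data.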

Additional observations from a re-analysis of the deposited data

How the results depend on the processing

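With 1 library per set of values no replicate could be left out, and depth limits what single cells show: 3 counts at the median depth are worth 71.7 CPM in the high cells. No paired analysis was possible because both sets of cells come from a single library and nothing was tested. Counts of genes past the fold are given as higher and lower, against 27 and 7. They were 555 and 52 at a ratio of 5 to 4, 5 and 0 at 2-fold, 17 and 2 with a prior of 5, 148 and 35 from 1 CPM, 8 and 3 from 50 CPM, and 42 higher with at most 5% mitochondrial UMIs. Other thresholds gave 8 and 2 (2 or more against 0), 79 and 16 (4 or more against 0), and 10 and 1 (3 or more against 1). Other depths gave 144 and 69 at 25000 to 35000 UMIs, 92 and 28 at 35000 to 45000, 69 and 27 at 45000 to 60000, 653 and 747 at 15000 to 25000, and 51 and 3 above 60000. The same cluster makeup gave 11 and 1, or 13 and 1 at resolution 0.5 and 16 and 1 at resolution 2. Without cardiomyocyte-like clusters 52 were higher. Leaving out the 6% of cells with the highest doublet scores gave 36 and 8, with 25 of the 27 and 5 of the 7 among them. TMM gave 17 and 11, and the same depth 14 lower.

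The following, like leaving out the endoderm-like cluster, were chosen after seeing the data. Thinned sets gave 98 and 34, cardiomyocyte-like clusters alone 79 and 16, mesenchymal and fibroblast-like ones 114 and 32, and unnamed ones 64 and 25. Length with depth and clusters gave 10 and 3, with GC added 11 and 3, and length alone 17 higher. Depth and clusters together gave 3 lower.

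Values that turned sign include the following, and the cause was not tested. Above 60000 UMIs Fbxl22 was 0.46, Hspb7 0.23 and Stil -0.0086, and in thinned sets Cited1 was -0.32. At 15000 to 25000 UMIs: Atad2 -0.26, Brca1 -0.77, Emb -0.63, Epcam -0.066, Hist1h1b -1.87, Hist1h2ae -0.55, Mki67 -1.54, Rbp4 -5.04, Spink1 -5.18, Ttr -3.38 and Tnnc1 0.018. Epcam was -0.17 at 35000 to 45000 UMIs, -0.11 at the same makeup at resolutions 1 and 0.5 and with depth matched, -0.077 and -0.072 with length and with GC taken out too, -0.048 in thinned sets, -0.38 without endoderm-like cells, -0.42 without endothelial-like ones as well, -0.87 in cardiomyocyte-like and -0.41 in mesenchymal and fibroblast-like clusters. In that order of those last 4 settings Rbp4 was -0.50, -0.54, -0.52 and -0.52, Spink1 -0.36, -0.39, -0.020 and -0.79, and Ttr -0.25, -0.22, -0.38 and -0.062. These 3 genes, and Epcam as well, lay under 10 CPM outside the endoderm-like cluster. In unnamed clusters Rbp4 was -0.59, Spink1 -0.58, Ttr -0.22, Car4 -0.054 and Emb -0.036. Car4 was -0.38 and Sema6a -0.20 in cardiomyocyte-like clusters, and -0.049 and -0.16 in thinned sets. Mt1 was -0.15 with at most 5% mitochondrial UMIs, -0.35 above 60000 UMIs, -0.59 in mesenchymal and fibroblast-like clusters and -0.030 with depth and makeup matched. Tnnc1 was 0.074 at 25000 to 35000 UMIs. Ctla2a was 0.17 with 2 or more against 0 and 0.083 in cardiomyocyte-like clusters. Dppa5a, alone in the pluripotent list, was 2.24 at 35000 to 45000 UMIs, 0.86 with 3 or more against 1 and 0.33 in cardiomyocyte-like clusters. Ratios within a single cluster were not run, since none held 100 cells of each set.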

Other observations

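Across the 43 gene lists with a measured member, 7 had a member at least 1.5-fold higher in the cells with 3 or more Zbtb16 UMIs, 3 had one at least 1.5-fold lower and 33 had none. The medians of those 33 ran from -0.16 for smooth muscle to 0.29 for mesenchymal and fibroblast genes. Lists not described above had these medians, beside 0.03 for all genes: 0.05 for BMP signalling (-0.04 with TMM scaling), 0.09 for Wnt signalling, 0.13 for Notch signalling, 0.08 for hedgehog signalling, 0.18 for TGF-beta, nodal and activin signalling, -0.07 for anterior Hox genes, 0.15 for other Zbtb genes and 0.02 for the amino acid and ER stress response. With the length trend removed these medians were, in the same order, 0.03, 0.01, -0.0015, -0.05, 0.04, -0.02, 0.0043 and 0.02. The median of all genes was then -0.0011. Haematopoietic and posterior mesoderm lists had no member at 10 CPM.

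Genes that pattern the anterior axis and the cholesterol pathway had the following members by ratio. Hoxb1, the Hox gene of the second heart field and hindbrain, stood at 125 CPM in the high cells and 158 CPM in the cells with 0 (-0.33), and Hoxb2 at 222 against 233 CPM (-0.07). Fdps, an enzyme of isoprenoid synthesis, stood at 319 against 387 CPM (-0.28). Vegfa, the main endothelial growth factor, stood at 34.7 against 24.5 CPM (0.49), or 0.44 with the length trend removed, while the endothelial genes stood lower. mt-Nd6, encoded on the light strand of mitochondrial DNA, stood at 48.4 against 33.3 CPM (0.53), against 0.01 for mt-Atp6, and reads of the opposite strand may be shared where counting ignores strand. In cells with more than 60000 UMIs mt-Nd6 had a ratio of 0.01.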
